A study of Homo sapiens with 12 samples.

Results

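The genes described here are targets of the transcription factor p53, listed as GDF15, CDKN1A, MDM2, FAS, BBC3, ZMAT3, TP53I3, SESN1, BTG2 and RRM2B. Of these 10 listed genes, 5 carried a transcript cluster (the array's unit for a gene) in the annotation used here: GDF15, BBC3, TP53I3, SESN1 and RRM2B. They are 5 of the 14884 genes annotated in the series, and each had 1 cluster. CDKN1A, MDM2, FAS, ZMAT3 and BTG2 were looked for by symbol among the clusters annotated to 1 symbol, matched none and were not analysed here.

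RNA was profiled on 12 Affymetrix GeneChip Human 2.0 ST arrays. They cover AGS, MKN1 and SNU601, which are established lines from gastric cancers. Each line had 1 array with DMSO, the solvent control, 1 with Rhosin, which blocks activation of the GTPase RhoA, and 1 array for each of JK136 and JK139, compounds known here by code only. All cells were grown in RPMI-1640 with fetal calf serum. Doses and exposure times are not stated in the labels, and each line is a single tumour-derived culture with no second array of any treatment.

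p53 is held at low levels in unstressed cells by the ubiquitin ligase MDM2 and is stabilised after DNA damage and other stresses. It then binds response elements near its target genes, which halt the cell cycle, start apoptosis, repair DNA or limit growth and metabolism. Some targets, GDF15 among them, also answer to other stress pathways such as that of ATF4.

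Of the 5 genes, GDF15 is shown first because its level differed most between the lines. SESN1 is shown because a p53 half-site lies near 1 of its starts, so it was picked by the match. Its level was highest with JK136 in AGS, as were those of BBC3, TP53I3 and RRM2B. Promoter windows from RefSeq (GRCh38.p14) were taken for 4 of the 5 genes, 6 in all, each with 250 bases before and 50 after a start. RRM2B was left out of this step. The upstream bases of GDF15 span chr19:18385908-18386157 on the plus strand. The SESN1 stretch spans chr6:109009013-109009042 on the minus strand, with the half-site in capitals, 49 to 40 bases before the start.
GDF15: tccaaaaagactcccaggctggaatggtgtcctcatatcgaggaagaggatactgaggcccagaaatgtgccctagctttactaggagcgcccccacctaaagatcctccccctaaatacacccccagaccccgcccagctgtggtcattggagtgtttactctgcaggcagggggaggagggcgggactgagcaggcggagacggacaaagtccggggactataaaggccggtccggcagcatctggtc
SESN1: cgtctGGACAAGTCTccacaagtcagaaat

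The p53 half-site, a consensus of 10 bases searched on both strands, matched 1 of these 6 windows, and 6.63% of all 35116 promoter windows of the same length. The motif TGATGNAAN, an element bound by ATF4, matched 0 of the 6 on either strand and 3.61% of all windows. A match describes the letters only, and elements outside these windows were not searched.

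Values are log2 signals after robust multi-array averaging (RMA). Over 53617 clusters, arrays of 1 line correlated with r between 0.978 and 0.988. Genes whose mean lay under the 40th percentile (4.61) were left out, which left 8930 tested genes with all 5 members among them. Of the epithelial markers, 5 of 6 were annotated, with array values between 4.76 (CLDN4) and 10.85 (KRT18). EPCAM had a mean of 6.49 in MKN1 against 10.04 in AGS and 10.19 in SNU601. The annotated markers of leukocytes (CD14), endothelium (PECAM1, VWF) and fibroblasts (DCN) had line means of 4.67 or less.

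The level in each line was examined first. AGS held the highest level of 4 of the 5 genes on every array (GDF15, BBC3, SESN1 and RRM2B), against 10.9% of all tested genes. In the model over all 12 arrays, with treatment and line as terms, 4 of the 5 genes were lower in MKN1 than in AGS and 5 of 5 were lower in SNU601 than in AGS. The 4 treatments of a line served as its replicates there, with no repeated culture. Over all genes, limma called 66.3% between MKN1 and AGS (35.3% higher, 31.0% lower) and 52.7% between SNU601 and AGS (29.9% higher, 22.8% lower). Between SNU601 and MKN1 it called 63.4% (32.3% higher, 31.1% lower), with 1 member higher and 2 lower. Without overlap of any arrays, 4 of 5 members lay lower in MKN1 than in AGS (27.2% of genes lower, 31.9% higher) and 5 of 5 lower in SNU601 than in AGS (20.2% lower, 27.2% higher). SNU601 lay above MKN1 in this way for 2 members (31.6% of genes) and below it for 2 (30.5%). A called difference between lines was therefore the rule for any gene, and the share of members is read against these values. In a bulk culture, fewer expressing cells and less RNA per cell cannot be told apart.

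**Figure D1:**
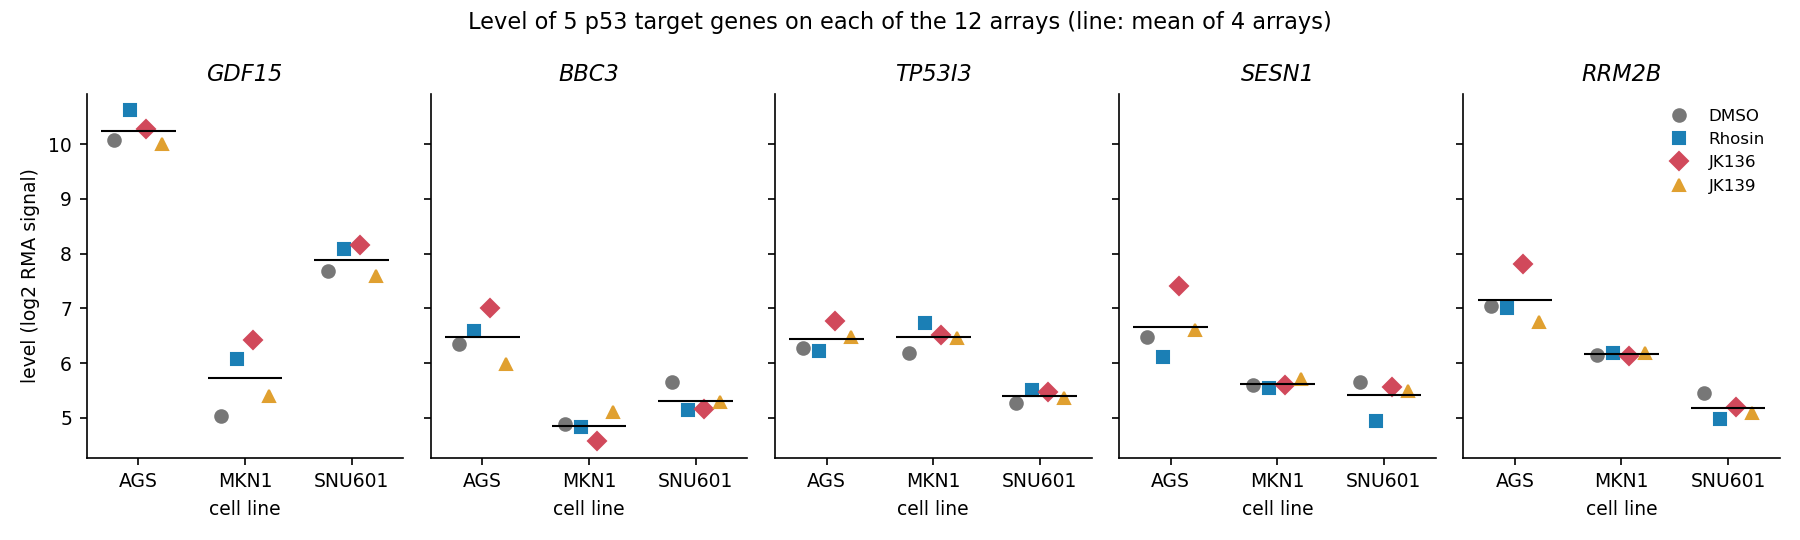
Log2 RMA signal (vertical axis) of the 5 p53 target genes in the 3 lines, with 1 point per array, coloured by treatment, and a bar at the mean of the 4 arrays of a line. GDF15 lies between 9.997 and 10.62 in AGS, between 7.59 and 8.16 in SNU601 and between 5.03 and 6.43 in MKN1, with no overlap; levels of different genes come from different probes and are not comparable.

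GDF15 codes for a secreted stress cytokine of the TGF-beta superfamily. In AGS its level was 10.07 with DMSO, 10.62 with Rhosin, 10.28 with JK136 and 9.997 with JK139. In SNU601 the values in the same order were 7.69, 8.08, 8.16 and 7.59, and in MKN1 they were 5.03, 6.07, 6.43 and 5.41. The lines did not overlap, with AGS highest, SNU601 between and MKN1 lowest. Line means were 10.24 ± 0.28, 7.88 ± 0.29 and 5.74 ± 0.63 (SD, n = 4 arrays, 1 per treatment), so MKN1 also had the widest spread over treatments. MKN1 was 22.7-fold lower than AGS (log2 fold change −4.51 ± 0.15 SE, limma adjusted p = 1.80e-10). SNU601 was 5.14-fold lower than AGS (−2.36 ± 0.15, limma adjusted p = 1.29e-07) and 4.42-fold higher than MKN1 (2.14 ± 0.15, limma adjusted p = 1.26e-07).

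Both annotated genes of cell death are BBC3 and TP53I3. BBC3 codes for PUMA, a BH3-only protein that triggers apoptosis at mitochondria. Its level in AGS was 6.35 with DMSO, 6.59 with Rhosin, 7.001 with JK136 and 5.99 with JK139. In SNU601 it was 5.66, 5.15, 5.16 and 5.29, and in MKN1 4.90, 4.84, 4.57 and 5.11. All 4 AGS arrays lay above those of the other lines, while SNU601 lay above MKN1 on every array by a small margin. BBC3 was 3.09-fold lower in MKN1 than in AGS (log2 fold change −1.63 ± 0.20 SE, limma adjusted p = 1.44e-05) and 2.25-fold lower in SNU601 (−1.17 ± 0.20, limma adjusted p = 0.000340). SNU601 and MKN1 differed by 0.46 ± 0.20, which did not pass (limma adjusted p = 0.0609) and passed under 9 of 24 alternatives (limma adjusted p from 0.00393 to 0.226).

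TP53I3 codes for a quinone oxidoreductase linked to oxidative stress in apoptosis. It was the member for which AGS did not lie above both other lines on every array. AGS had 6.28, 6.22, 6.77 and 6.49 with DMSO, Rhosin, JK136 and JK139, and MKN1 had 6.19, 6.74, 6.51 and 6.46. These lines overlapped, and their difference of 0.036 ± 0.11 did not pass (limma adjusted p = 0.793, 95% confidence interval −0.21 to 0.28). SNU601 had 5.27, 5.52, 5.47 and 5.36, below every array of the other lines. It was 2.05-fold lower than AGS (−1.04 ± 0.11, limma adjusted p = 1.10e-05) and 2.10-fold lower than MKN1 (−1.07 ± 0.11, limma adjusted p = 4.36e-06).

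SESN1 codes for sestrin 1, a stress protein that restrains the growth kinase mTORC1. In AGS it stood at 6.48 with DMSO, 6.12 with Rhosin, 7.41 with JK136 and 6.60 with JK139. MKN1 had 5.61, 5.54, 5.60 and 5.72, and SNU601 had 5.65, 4.95, 5.56 and 5.49. AGS lay above both other lines on every array, and those lines overlapped. SESN1 was 2.05-fold lower in MKN1 (−1.04 ± 0.17, limma adjusted p = 0.000159) and 2.36-fold lower in SNU601 (−1.24 ± 0.17, limma adjusted p = 6.44e-05) than in AGS. MKN1 and SNU601 differed by −0.20 ± 0.17, which did not pass (limma adjusted p = 0.311, 95% confidence interval −0.57 to 0.16).

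RRM2B codes for the p53-inducible subunit of ribonucleotide reductase, which supplies deoxynucleotides for DNA repair. AGS had 7.04, 7.002, 7.80 and 6.75 with DMSO, Rhosin, JK136 and JK139. MKN1 had 6.16, 6.18, 6.13 and 6.19, the narrowest spread of any member in any line (SD 0.027). SNU601 had 5.45, 4.99, 5.19 and 5.08. The lines did not overlap, in the order AGS, MKN1 and SNU601. RRM2B was 1.98-fold lower in MKN1 than in AGS (−0.98 ± 0.16, limma adjusted p = 0.000167), 3.92-fold lower in SNU601 than in AGS (−1.97 ± 0.16, limma adjusted p = 1.09e-06), and 1.98-fold lower in SNU601 than in MKN1 (−0.98 ± 0.16, limma adjusted p = 0.000178). Its paralog RRM2 and RRM1, another subunit of the enzyme, were higher in MKN1 than in AGS by 0.44 and 0.41. In SNU601 they were higher than in AGS by 0.70 and 0.23, and all 4 differences were called.

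**Figure D2:**
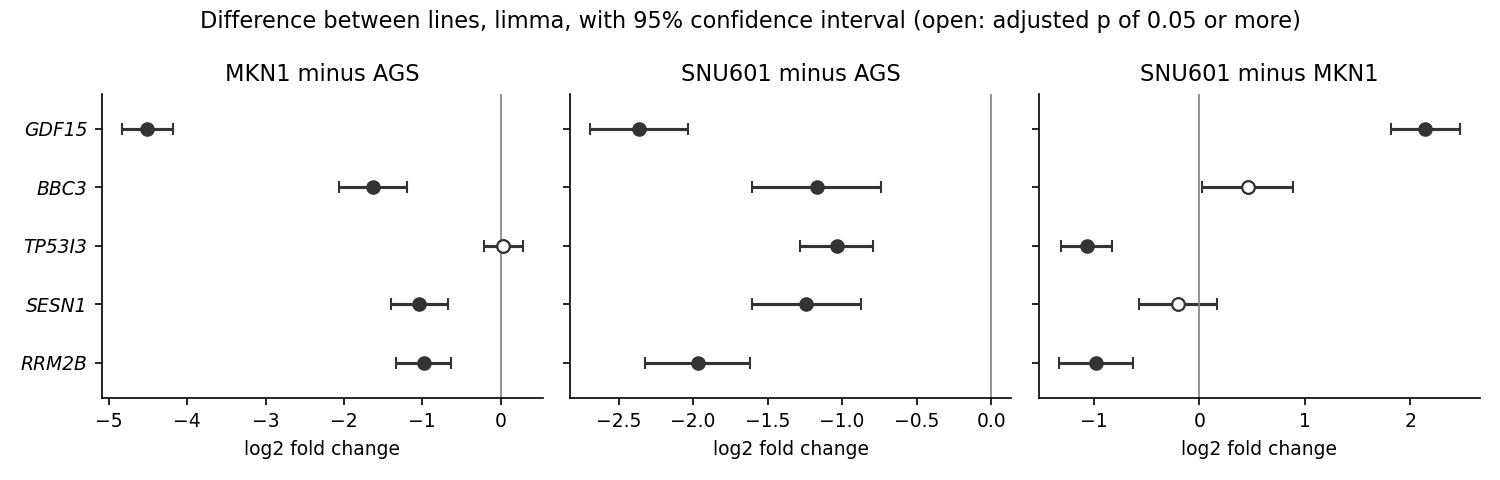
Difference between lines (horizontal axis, log2 fold change) for the 5 genes from limma over 12 arrays, with points at the estimate and bars at the 95% confidence interval. Open points did not pass an adjusted p of 0.05: TP53I3 between MKN1 and AGS, and BBC3 and SESN1 between SNU601 and MKN1.

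Further p53 targets were taken from a list of 34 genes, of which 21 were annotated and 17 tested. In MKN1, 13 of the 17 were called lower than in AGS and 3 higher, with a median log2 difference of −0.82 against 0.021 over all tested genes. In SNU601, 12 of the 17 were called lower than in AGS and 0 higher, with a median of −0.90 against 0.051. RPS27L, a small ribosomal protein homologue, was lower by −2.45 in MKN1 and −1.90 in SNU601, and BAX, the pore-forming death protein, by −2.22 and −1.16. In MKN1 RPS27L had a mean of 4.29, under the level of the filter, so its difference there rests on low values. Its means were 4.84 in SNU601 and 6.74 in AGS. DDIT4, an inhibitor of mTORC1, differed by −2.01 and −2.16, and TP53INP1, a stress-induced autophagy protein, by −1.24 and −2.38. The genes higher in MKN1 were the BH3-only gene PMAIP1 (0.97) and the polo-like kinases PLK3 (0.70) and PLK2 (0.36). Between SNU601 and MKN1, 8 were called higher in SNU601 and 4 lower. The most distant were APAF1 and BAX at 1.05 each and SESN2, a paralog of SESN1, at 0.87, against PMAIP1 at −1.97, PLK2 at −1.61 and TP53INP1 at −1.14. The other 4 annotated genes (CMBL, EDA2R, SPATA18 and TRIM22) lay under the filter.

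Of 9 tested regulators of p53, MDM4, a binding partner that inhibits it, was lower than in AGS by −1.17 in MKN1 and −0.98 in SNU601. HIPK2, a kinase of p53, was called higher in MKN1 (0.68) and lower in SNU601 (−1.28). EP300, its acetyltransferase, was called higher in both, by 0.57 and 1.31. USP7, a deubiquitinase, was lower in MKN1 (−0.61) and higher in SNU601 (0.27), the checkpoint kinases CHEK2 and ATR stood at −0.50 in MKN1 and 0.72 in SNU601, and TP53BP1, a DNA break sensor, at −0.37 in SNU601. In all, 2 regulators were called higher and 5 lower in MKN1, and 3 higher and 3 lower in SNU601, where 66.3% and 52.7% of all genes were called. Between SNU601 and MKN1, 5 were higher in SNU601, with USP7 (0.88), EP300 (0.74) and CHEK2 (0.73) first, and 1 lower, HIPK2 (−1.96). Another list held cell cycle genes that p53 represses through p21 and the DREAM complex. Of 18 tested, 12 were called higher in MKN1 than in AGS and 2 lower, with a median of 0.44 (all genes 35.3% higher, median 0.021). In SNU601, 10 were higher and 2 lower, with a median of 0.27 (all genes 29.9% higher, median 0.051). The highest in MKN1 were PLK1, a mitotic kinase, at 1.07, CDC20, an activator of the anaphase-promoting complex, at 0.94, and the transcription factor E2F1 at 0.90. In SNU601 they were RRM2 (0.70), the cyclin CCNB2 (0.67) and the mitotic kinase AURKB (0.66). PCNA, the replication clamp, was called lower in both, by −0.49 and −0.35, as were CDK1 in MKN1 (−0.24) and MYBL2, a cell cycle transcription factor, in SNU601 (−0.35). Between SNU601 and MKN1, 4 were higher, led by CDK1 (0.63), AURKB (0.56) and CCNB2 (0.48). The 8 that were lower were led by MYBL2 (−1.19), CDC20 (−0.78) and TOP2A, a topoisomerase (−0.77).

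The second question was how each compound changed these genes. Over the 3 lines, limma called 0 of the 5 genes for Rhosin, JK136 or JK139 against DMSO, and it called 0 of 8930 genes (0%) in each comparison. At an unadjusted p under 0.05 there were 560 genes for Rhosin (6.27%, GDF15 among them), 469 for JK136 (5.25%, GDF15 and TP53I3 among them) and 218 for JK139 (2.44%, no member). The differences that follow are therefore given as values. The 3 comparisons share the DMSO array of each line. A further F test in limma asked whether the mean response to the compounds differed between lines; its error is the spread among the compounds within a line. It called 0 of 8930 genes (0%), and 244 (2.73%) had an unadjusted p under 0.05. The 5 members were not among either set (limma adjusted p = 0.9999 for each).

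**Figure D3:**
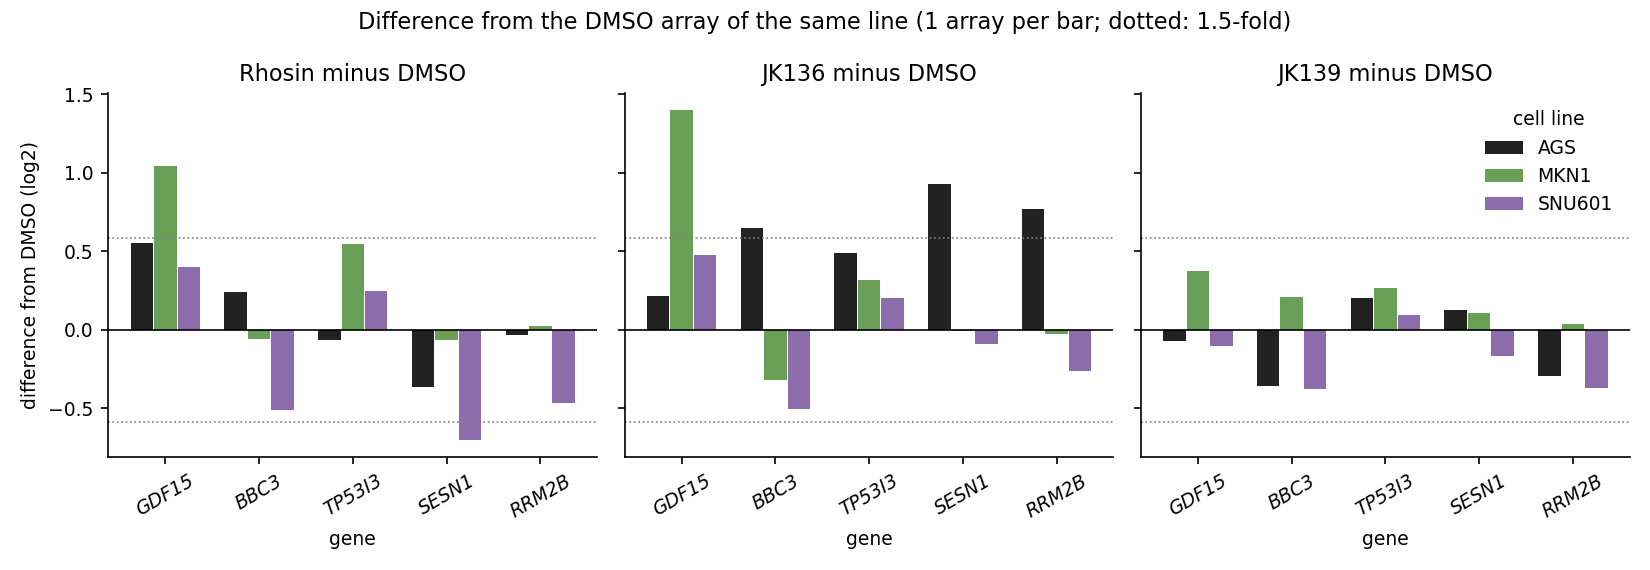
Difference from the DMSO array of the same line (vertical axis, log2) for the 5 genes with each compound, with 1 bar per line from a single pair of arrays and dotted lines at 1.5-fold. GDF15 in MKN1 reaches 1.40 with JK136 and 1.04 with Rhosin, while SESN1, RRM2B and BBC3 pass 1.5-fold with JK136 in AGS at 0.93, 0.77 and 0.65.

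GDF15 lay above DMSO in all 3 lines with Rhosin and with JK136, as did 12% and 10.6% of all tested genes. Rhosin gave differences of 0.55, 1.04 and 0.40 in AGS, MKN1 and SNU601. Its mean log2 fold change of 0.66 ± 0.17 SE did not pass (limma adjusted p = 0.532), and it was 0.43 without the MKN1 DMSO array. With JK136 it was 0.21 in AGS and 0.48 in SNU601 but 1.40 in MKN1, a 2.64-fold difference, which 0.0336% of tested genes reached in that line. The mean was 0.70 ± 0.17 (limma adjusted p = 0.801), and without MKN1 it was 0.34. With JK139 the values were −0.072 in AGS, 0.37 in MKN1 and −0.10 in SNU601. MKN1, with the lowest GDF15 of the lines, had the highest difference with each compound, and its spread over treatments was also the widest. GDF15 was the member past 1.5-fold in MKN1 with Rhosin (0.795% of genes higher by that much) and with JK136 (0.817% higher, 0.952% lower), and 0 members were past it there with JK139.

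In AGS with JK136, all 5 members lay above DMSO (43.7% of all tested genes did), and 3 of 5 by at least 1.5-fold, against 1.80% of all tested genes. SESN1 was higher by 0.93 (1.91-fold), RRM2B by 0.77 (1.70-fold), BBC3 by 0.65 (1.57-fold) and TP53I3 by 0.49 (1.40-fold). GDF15 was higher by 0.21. For the first 4 of these the JK136 array was the highest of the 4 AGS arrays, as for 24.5% of all tested genes, while GDF15 was highest with Rhosin. These are differences between single arrays, with no second JK136 or DMSO culture of AGS.

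With JK136 in MKN1 and SNU601, the members other than GDF15 differed from DMSO by less than 1.5-fold. In SNU601 0 members were past 1.5-fold, against 0.705% of genes higher and 0.717% lower. SESN1 differed by −0.0087 in MKN1 and −0.093 in SNU601, RRM2B by −0.027 and −0.26, and BBC3 by −0.32 and −0.50. TP53I3 was higher in both, by 0.32 and 0.20, and so lay above DMSO in all 3 lines. Means over lines were 0.28 ± 0.19 for SESN1, 0.16 ± 0.19 for RRM2B, −0.058 ± 0.23 for BBC3 and 0.34 ± 0.13 for TP53I3 (SE; limma adjusted p between 0.902 and 0.985). Without AGS they were −0.051, −0.14, −0.41 and 0.26. Whether the response to JK136 alone differs between lines was not tested, since each line had 1 such array.

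With Rhosin the members other than GDF15 differed from DMSO by less than 1.5-fold, except SESN1 in SNU601. SESN1 lay below DMSO in all 3 lines, with −0.36 for AGS, −0.067 for MKN1 and −0.70 for SNU601, as 14.3% of all tested genes were. Its mean was −0.38 ± 0.19 (limma adjusted p = 0.807), or −0.21 without SNU601, and SNU601 was the line past 1.5-fold (1.12% of genes lower and 1.15% higher by that much). RRM2B had −0.036, 0.023 and −0.47 and BBC3 0.24, −0.056 and −0.51 in the same order of lines. TP53I3 had −0.063, 0.54 and 0.25, so in MKN1 and SNU601 it lay above DMSO with Rhosin as it did with JK136. In SNU601 SESN1, RRM2B and BBC3 lay below DMSO with every compound, as did 29.4% of all tested genes. For RRM2B those differences were −0.47 with Rhosin, −0.26 with JK136 and −0.37 with JK139, and for BBC3 −0.51, −0.50 and −0.37, with the DMSO array the highest of that line.

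JK139 gave the smallest range of differences from DMSO among the members. They lay between −0.37 (BBC3 in SNU601) and 0.37 (GDF15 in MKN1), and 0 of the 5 genes were past 1.5-fold in any line, where 0.549% to 0.661% of all genes were past it in each direction in MKN1 and SNU601 and 0.649% to 0.694% in AGS. TP53I3 lay above DMSO in all 3 lines, with differences of 0.20, 0.27 and 0.095 in AGS, MKN1 and SNU601. Of all genes, 10.1% were higher and 13.6% lower in the 3 lines. Its mean was 0.19 ± 0.13 (limma adjusted p = 0.9999). In AGS, where JK136 was high, BBC3 and RRM2B were below DMSO with JK139, by −0.36 and −0.29.

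The compounds were compared directly in 3 pairs in the same model. The labels do not say whether doses and times matched, and JK136 and JK139 are known only by code, so no structural difference is named. Limma called 0 of 8930 genes (0%) in each pair, with unadjusted p under 0.05 for 812 genes between JK136 and Rhosin (9.09%, SESN1 among them). For JK139 there were 663 against Rhosin (7.42%) and 494 against JK136 (5.53%), each with GDF15. SESN1 lay higher with JK136 than with Rhosin in each line, by 1.29, 0.058 and 0.61 in AGS, MKN1 and SNU601, as did 13.2% of all genes. The mean was 0.65 ± 0.19 (95% confidence interval 0.23 to 1.08, limma adjusted p = 0.419), and 0.33 without AGS. GDF15 was lower with JK139 than with Rhosin by 0.62, 0.67 and 0.50 in AGS, MKN1 and SNU601, and lower than with JK136 by 0.28, 1.03 and 0.58. Of all genes, 14.4% and 13.1% were lower in each line in these comparisons. The means were −0.60 ± 0.17 (limma adjusted p = 0.570) and −0.63 ± 0.17 (limma adjusted p = 0.883), the latter −0.39 without the MKN1 JK136 array. Between JK136 and Rhosin GDF15 differed by 0.033 ± 0.17, with an interval of −0.35 to 0.41, which leaves room for differences of about that size.

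RRM2B differed most between JK139 and JK136 in AGS, at −1.06, a 2.08-fold difference, followed by BBC3 at −1.01 and SESN1 at −0.81. In MKN1 the same differences were 0.062, 0.53 and 0.12, and in SNU601 −0.11, 0.13 and −0.073. The means over lines did not pass, at −0.37 ± 0.19 for RRM2B (95% confidence interval −0.77 to 0.036, limma adjusted p = 0.891), −0.12 ± 0.23 for BBC3 and −0.25 ± 0.19 for SESN1. They rested on AGS, and without it they were −0.024, 0.33 and 0.021.

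The 17 further targets were set beside the members for JK136. In AGS, 15 of 17 lay above DMSO, with a median difference of 0.57, where 43.7% of all tested genes lay above and their median was −0.036. Of the 17, 7 were at least 1.5-fold higher and 1 lower (11 higher after quantile normalization of the deposited values, when 2.19% of all genes were; 1.80% and 2.34% of all genes were higher and lower in the deposited values). Genes of apoptosis were TP53INP1 at 1.19, BAX at 0.64, AEN, a nuclease, at 0.60, APAF1, the apoptosome scaffold, at 0.57 and PMAIP1 at −0.22. Genes of survival and metabolism were TRIAP1, an inhibitor of apoptosis, at 0.89, TIGAR, a phosphatase that restrains glycolysis, at 0.72, and SESN2 at 0.31. Genes of cell cycle control were PLK3 at 0.55, CCNG1, cyclin G1, at 0.46, PLK2 at 0.42 and SERTAD1 at 0.33. ASCC3, a helicase in DNA alkylation repair, had 0.71, SUSD6 0.69, RPS27L 0.58 and FBXO22, a ubiquitin ligase subunit, 0.54. DDIT4 stood apart at −1.55.

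**Figure D4:**
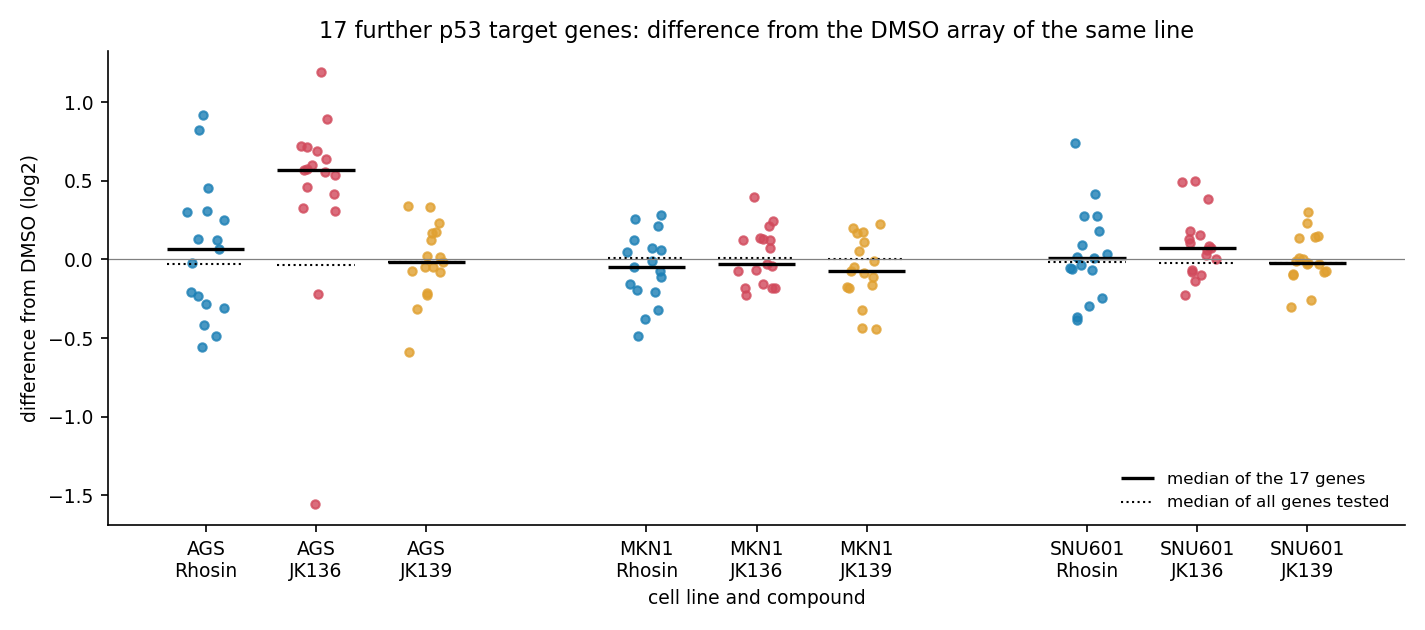
Difference from the DMSO array of the same line (vertical axis, log2) for 17 further p53 targets, with 1 point per gene for each line and compound, a solid bar at their median and a dotted bar at the median of all tested genes. With JK136 in AGS the solid bar is at 0.57, and in the other 8 combinations it lies between −0.074 and 0.074.

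With JK136 the median of these 17 genes was −0.027 in MKN1, with 8 above DMSO (51.4% of all genes were), and 0.074 in SNU601, with 12 above (44.2%). In AGS it was 0.064 with Rhosin, with 9 above (44.9% of all genes), and −0.014 with JK139, with 8 above (46.6%). Over the 3 lines, 16 of 17 had a positive log2 fold change with JK136 and a median of 0.20, where 44.0% of all genes were positive. Without AGS 11 of 17 were positive (47.3% of all genes) with a median of 0.068. Without the single AGS JK136 array 11 of 17 were (46.1% of all genes), with 0.060. Limma called 0 of the 17, and 1, TIGAR at 0.36 ± 0.13, had an unadjusted p under 0.05. The genes that p53 represses through DREAM had a median of −0.033 with JK136 in AGS, close to the −0.036 of all genes. Of them 6 of 18 lay above DMSO, against 43.7% of all genes. Of 9 regulators 1 was above DMSO there, with a median of −0.17.

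Genes of the ATF4 and CHOP stress branch, which also reaches GDF15, SESN2 and DDIT4, had other signs in AGS. Of 15 listed genes, 11 were annotated and 9 tested. DDIT3, which codes for CHOP itself, lay under the filter and was not among the 9. With JK136, 4 of 9 tested genes were at least 1.5-fold below DMSO in that line (2.34% of all genes were), namely CTH, an enzyme of cysteine synthesis, at −1.34, TRIB3, a pseudokinase, at −1.22, ASNS, asparagine synthetase, at −1.09 and PSAT1, of serine synthesis, at −0.68. ATF4 had −0.41. In MKN1, where GDF15 differed by 1.40, 8 of 9 lay above DMSO (51.4% of all genes did) with a median of 0.27, led by PHGDH, another serine enzyme, at 0.60. In SNU601 the median was 0.00044, with ATF3, a stress-induced repressor, at 0.68 and ASNS at −0.65. The filter used the mean over all arrays, so some of these genes were low in single lines. ASNS (4.59), PHGDH (4.31) and STC2 (4.30) in SNU601 and PHGDH in AGS (4.17) had line means under its level of 4.61. ATF3 in SNU601 lay just above it, at 4.65. The counts and medians of AGS and SNU601 include these low values. With Rhosin 8 of 9 lay above DMSO in AGS (44.9% of all genes did), with a median of 0.24, and 5 of 9 in MKN1 and 6 of 9 in SNU601 lay above it (51.6% and 47.1%). Over the lines, the highest and lowest means were CTH (0.44) and ASNS (−0.13) with Rhosin, ATF3 (0.31) and CTH (−0.48) with JK136, and ASNS (0.073) and STC2 (−0.34) with JK139. Limma called 0 of the 9 in any comparison with DMSO, at an unadjusted p under 0.05 there was 1 for Rhosin, and the part of this branch in the values of GDF15 was not tested.

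Members were also set against each other after each line was centred on its own mean, over 12 arrays that share lines and DMSO controls. RRM2B had r = 0.85 with BBC3 and 0.81 with SESN1. Without the AGS JK136 array the values were 0.77 and 0.37, so the relation to SESN1 rested largely on that array. GDF15 had r = 0.0052 with RRM2B, −0.20 with BBC3, −0.22 with SESN1 and 0.43 with TP53I3. The 5 genes most like GDF15 by this measure, of 8929, were PLEK2 (0.898), GBP3 (0.894), SMAD3 (0.891), VASN (0.885) and DRAP1 (0.871), none of them on the lists used here.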

How the data were processed

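The authors deposited log2 signals from RMA, which corrects background, quantile-normalizes arrays and summarises probes per transcript cluster. Expression Console and RMA are named in the submitters' processing notes; versions are not given in the sources used here. Clusters with no symbol, or with more than 1, in GEO's platform annotation were left out, which left 16098 of 53617. A symbol with several clusters took the one of highest mean signal, and genes under the 40th percentile of means were left out.

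The model was fitted in limma 3.58.1 (R 4.3.3) with fixed terms for line and treatment (6 residual degrees of freedom) and Benjamini-Hochberg adjustment over 8930 genes. An adjusted p under 0.05 was called. With 1 array per line and treatment, the spread behind a p-value for a compound is that between lines in their treatment differences, not between cultures. For a difference between lines, the treatments served as the replicates of a line, so those p-values also rest on no repeated culture. The line pairs the arrays, and deviations of arrays of 1 line from their treatment means correlated with r between 0.849 and 0.957. Depth does not apply to arrays, and their number limits precision. The fits were tested on simulated data.

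The members, the gene lists and the tests were chosen with earlier results of these data known. All members were named. From the other lists the rule took, per comparison, the 3 highest and 3 lowest called genes, or 1 of each where none was called. Its genes for comparisons of compounds are printed in part, as are those of the stress branch between lines, and the other genes named were chosen after their values were seen. Alternatives covered normalization, filters, cluster choice, variance priors, array weights, the treatment of line, and leaving out each array or line.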

Additional observations from a re-analysis of the deposited data

How the results depend on the processing

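Of the counts of genes called by limma, 259 of 262 kept within 1.5 times under the alternatives. The others were JK136 against DMSO with 1 gene without the filter on low genes, and JK136 against Rhosin with 1 gene at a threshold of 0.10 and 0 to 3 over the fits that leave out an array or line (3 without the MKN1 JK136 array). These genes are not members. With no replicate block, that is with line left out of the model, and with line as a random block, 0 genes were called in each treatment comparison, so the pairing by line changed no call. Differences of members between lines kept their call in 363 of 372 alternatives. BBC3 between SNU601 and MKN1 passed in the other 9, which include the looser threshold of 0.10 (0.30 to 0.63 over all its alternatives). No called difference changed its sign. Of 834 refitted treatment differences of members, 0 passed, and 1 moved by more than the SD between lines. Alternatives for the gene lists and folds were chosen after seeing the data. Under them the median of the 17 further targets with JK136 was 0.060 to 0.27, and those past the fold in AGS numbered 13 at 1.3-fold and 1 at 2-fold. The filter at the 60th percentile left BBC3 untested. Values under about 4.61 and differences between single arrays have no replicate behind them.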
